A study of Homo sapiens with 19 samples.

Results

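The miR-25/92 seed family consists here of 5 human miRNAs, hsa-miR-92a-3p, hsa-miR-92b-3p, hsa-miR-25-3p, hsa-miR-32-5p and hsa-miR-363-3p. They were chosen by name and not by a cut on a measured value, but with earlier results of these data known. Among the 1043 miRNAs listed in the deposited counts, 4 of the 5 occur. Small RNA had been sequenced from Caco-2 cells, an established epithelial line of colorectal origin carrying no engineered change (WT), and from the medium that these cells had conditioned. Cells were grown with 20% FBS to 80% confluence and then kept for 24 h in medium with neither FBS nor antibiotics. Total exRNA (4 libraries) is the RNA of that medium once debris had been spun out, P40 (4) the pellet at 40000 xg, P100 (4) the pellet at 100000 xg, S100 (3) the liquid above that last pellet, and cell lysate (3) the RNA of the cells. Total exRNA and S100 were precipitated ahead of Trizol extraction and the other groups were not, so preparation and fraction cannot be told apart wherever the 2 kinds are compared. All groups come from 1 cell line, and no label says whether replicates are separate cultures, so p-values describe only the spread between these libraries.

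A miRNA guides Argonaute proteins to mRNAs that pair with its seed, bases 2 to 8 from the 5′ end, and miRNAs with the same seed can therefore share targets. Members of this family promote growth and survival in many tumours, where the mRNA of the pro-apoptotic protein BIM is among their known targets. miR-92a is made from 2 hairpins, in the miR-17-92 cluster and in its X-linked copy, the miR-106a-363 cluster that also holds miR-363. miR-25 belongs to the miR-106b-25 cluster inside the replication gene MCM7, whereas miR-32 and miR-92b have hairpins of their own. Outside cells, miRNAs are found in vesicles, in Argonaute complexes and in lipoprotein particles, and erythrocytes are rich in miR-92a and miR-25.

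The mature sequences are shown because the family is defined by them and because reads were assigned to members by them. All 5 matched the RefSeq table (GRCh38.p14). Capitals mark the seed, which is the same in each.

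hsa-miR-92a-3p: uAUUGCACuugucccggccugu

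hsa-miR-92b-3p: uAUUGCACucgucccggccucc

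hsa-miR-25-3p: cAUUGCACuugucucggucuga

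hsa-miR-32-5p: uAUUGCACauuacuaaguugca

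hsa-miR-363-3p: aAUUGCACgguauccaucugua

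Counted from 1 at the 5′ end of miR-92a-3p, miR-92b-3p carried U10C, G21C and U22C, and miR-25-3p carried U1C, C14U, C18U and U22A. Of 22 positions, miR-92b-3p thus equals miR-92a-3p at 19 and miR-25-3p equals it at 18, while miR-32-5p does so at 11 and miR-363-3p at 10. A read of miR-92a-3p and a read of miR-92b-3p differ at no position before 10, and how the authors treated shortened or ambiguous reads is not given in the sources used here. In the table, 6 human mature miRNAs have this seed. The one outside the list, miR-367-3p, had 2 counts in all, both in total exRNA replicate 4.

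The hairpins of miR-92a and miR-25 are shown because the 5p arms of MIR92A1 and MIR92A2 separate loci that their shared 3p arm cannot, and because the arms of MIR25 are compared later. Capitals mark both annotated arms, 5p first.

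MIR92A1: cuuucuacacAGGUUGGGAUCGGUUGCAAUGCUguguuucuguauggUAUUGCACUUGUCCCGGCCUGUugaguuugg

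MIR92A2: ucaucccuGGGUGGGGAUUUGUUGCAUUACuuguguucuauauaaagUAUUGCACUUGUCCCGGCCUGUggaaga

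MIR25: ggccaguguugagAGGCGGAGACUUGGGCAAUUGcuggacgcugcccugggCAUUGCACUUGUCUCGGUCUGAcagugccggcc

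On GRCh38, MIR92A1 lies at chr13:91351314-91351391 on the plus strand, in an exon of MIR17HG. MIR92A2 (chrX:134169538-134169612) and MIR363 (chrX:134169378-134169452) lie on the minus strand in an exon of AC002407.1. MIR25 (chr7:100093560-100093643) lies on the minus strand in an intron of MCM7, MIR32 (chr9:109046229-109046298) on the minus strand in an intron of TMEM245, and MIR92B (chr1:155195177-155195272) on the plus strand in an exon of AC234582.1. MIR92A1 and MIR92A2 give an identical miR-92a-3p, so its counts join both loci.

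Depth ranged from 34427 to 61622 miRNA counts in total exRNA, 10490 to 26096 in P40, 10017 to 27027 in P100, 198878 to 225290 in S100 and 37453 to 157051 in cell lysate. S100 replicate 1 held 48 counts and was left out. Markers of intestinal epithelium were all detected (8 of 8) in every group, with 4.45% to 5.40% of counts in total exRNA, 3.66% to 4.27% in P40, 2.97% to 4.37% in P100, 2.59% to 2.95% in S100 and 4.31% to 5.56% in cell lysate. Their summed share was thus lowest in S100, where the family share was also lowest, and its part in the family values was not tested. The single markers did not move together. Mean CPM (explained below) was lower in S100 than in cell lysate for miR-194-5p, miR-200a-3p, miR-200b-3p and miR-200c-3p, the last at 3726 against 48331. It was higher for miR-192-5p (16355 against 4807), miR-215-5p, miR-141-3p and miR-429. Markers of blood cells held 0.0900% to 0.232% of counts in total exRNA (6 of 7 detected), 0.273% to 0.343% in P40 (5 of 7), 0.140% to 0.283% in P100 (5 of 7), 0.00799% to 0.0151% in S100 (5 of 7) and 0.0401% to 0.0439% in cell lysate (4 of 7). The erythrocyte markers miR-451a and miR-144-3p and the myeloid marker miR-223-3p were at 0 in cell lysate. Another marker of the list, miR-486-5p, held 105 of the 108 blood marker counts there. Whether RNA of blood cells or residual serum adds to the extracellular values of this family was not tested.

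The family held a large part of all miRNA counts, and its mean share was highest in cell lysate and lowest in S100, given here without a test. It made up 14.2% ± 2.21 of counts in total exRNA (SD, n = 4), 22.6% ± 5.18 in P40 (n = 4), 26.5% ± 2.40 in P100 (n = 4), 9.47% ± 0.960 in S100 (n = 3) and 31.9% ± 4.37 in cell lysate (n = 3). The lowest library was S100 replicate 2, at 8.37% (95% Wilson interval 8.25% to 8.49%), and the highest was cell lysate replicate 1, at 36.2% (35.7% to 36.7%). All total exRNA and S100 libraries lay below all cell lysate libraries. P100 and cell lysate overlapped, and so did P40 and cell lysate. A share of a library does not give an amount, so less family RNA and more RNA of other miRNAs cannot be told apart, nor can fewer contributing cells and less RNA per cell.

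**Figure D1:**
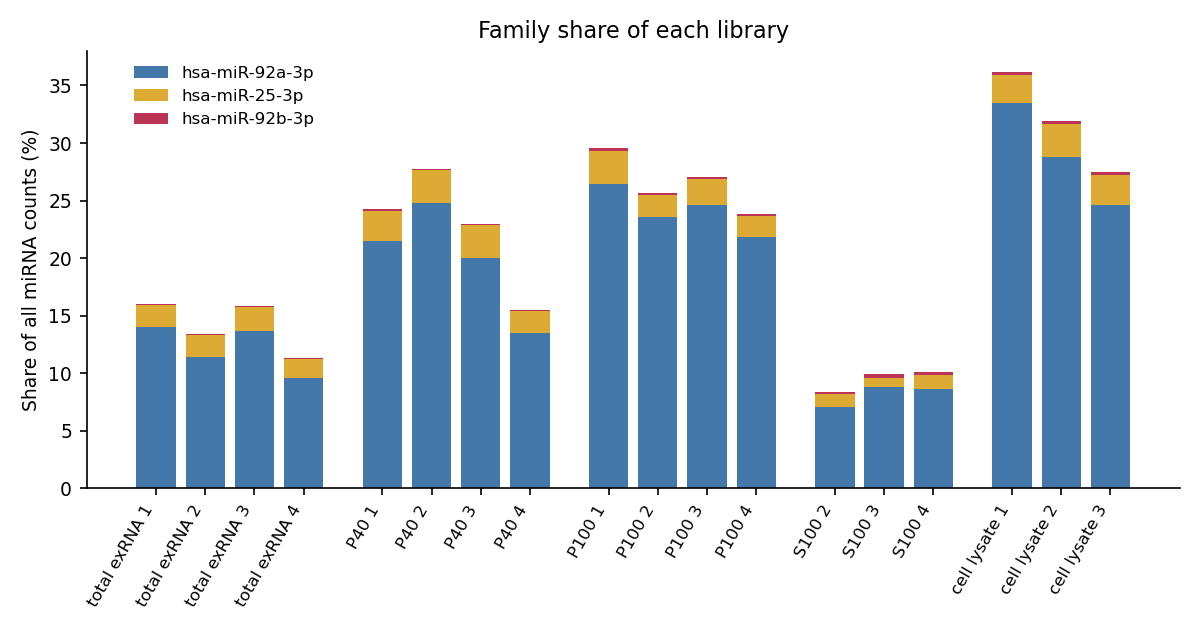
Share of all miRNA counts (percent, y axis) taken by miR-92a-3p, miR-25-3p and miR-92b-3p in each of 18 libraries (bars, stacked from 0). miR-92a-3p makes up most of each bar, and bars are lowest in S100, near 9%, and highest in cell lysate, up to 36.2%.

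Within the family, miR-92a-3p supplied 84.2% to 92.5% of the counts in every library. It ranked 1 among all miRNAs of each P40, P100 and cell lysate library, 1 or 2 in total exRNA and 3 in each S100 library. miR-25-3p came next, ranking between 5 and 22. miR-92b-3p ranked between 40 and 114. Levels of different miRNAs are compared here as counts of mature forms of equal length (22 bases).

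miR-92a-3p, a member studied in colorectal tumours and in vessel growth, had 140929, 104278, 123876 and 91608 CPM in total exRNA replicates 1 to 4, where CPM stands for a library-scaled count (counts over the effective library size from TMM, a trimmed-mean scaling, times 1e6). P40 replicates 1 to 4 had 194324, 253412, 180269 and 112278 CPM. P100 replicates 1 to 4 had 282595, 235922, 290946 and 221979 CPM.

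S100 replicates 2 to 4 had 72212, 82533 and 98848 CPM of miR-92a-3p, and cell lysate replicates 1 to 3 had 437709, 334111 and 261642 CPM. In CPM, every total exRNA, P40 and S100 library was thus below every lysate library, and P100 overlapped with lysate. As an unscaled share of counts, P40 replicate 2 (24.8%) lay above cell lysate replicate 3 (24.6%). Ordered by mean from the lowest, S100 (84531 ± 13430 CPM, SD, n = 3) was followed by total exRNA (115173 ± 21704, n = 4), P40 (185071 ± 57960, n = 4), P100 (257860 ± 34036, n = 4) and cell lysate (344488 ± 88491, n = 3). No neighbours in that order passed the test (edgeR adjusted p = 0.159, 0.0795, 0.258 and 0.230, from the lowest pair up), and each pair of neighbours overlapped.

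miR-25-3p, which is raised in many tumours with the MCM7 cluster, had 19041, 17047, 18692 and 16189 CPM in total exRNA replicates 1 to 4. P40 replicates 1 to 4 had 23131, 29292, 26074 and 15260 CPM, and P100 replicates 1 to 4 had 31057, 19111, 27278 and 18667 CPM. S100 replicates 2 to 4 had 11240, 7474 and 13924 CPM, and cell lysate replicates 1 to 3 had 31337, 33701 and 27983 CPM.

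The order of the means of miR-25-3p was the same as for miR-92a-3p, with S100 (10879 ± 3240 CPM) below total exRNA (17742 ± 1352) without overlap (edgeR adjusted p = 0.0363). P40 (23439 ± 6005 CPM), P100 (24028 ± 6134) and cell lysate (31007 ± 2873) followed. Neighbours from total exRNA upwards did not pass the test (edgeR adjusted p = 0.328, 0.919 and 0.311), and each pair of them overlapped.

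miR-92b-3p, a member known from neural progenitor cells, had 913, 991, 848 and 805 CPM in total exRNA replicates 1 to 4. P40 replicates 1 to 4 had 1881, 1451, 1072 and 791 CPM, and P100 replicates 1 to 4 had 2312, 1636, 1489 and 1725 CPM. S100 replicates 2 to 4 had 1997, 2984 and 3156 CPM, and cell lysate replicates 1 to 3 had 4188, 3604 and 2272 CPM.

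Here the order differed from that of the other 2 members, since total exRNA (889 ± 81.2 CPM) was lowest, followed by P40 (1299 ± 473), P100 (1790 ± 361), S100 (2712 ± 625) and cell lysate (3354 ± 982). No neighbours passed the test (edgeR adjusted p = 0.275, 0.437, 0.130 and 0.479, from the lowest pair up), and each pair overlapped.

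miR-32-5p, which lies in an intron of TMEM245, was counted 34 times in all, in 10 of 18 libraries. It had 2, 8, 4 and 7 counts in total exRNA replicates 1 to 4, and 1, 0, 1 and 1 counts in P40 replicates 1 to 4. P100 replicates 1 to 4 had 1, 0, 0 and 0 counts, S100 replicates 2 to 4 had 0, 6 and 0, and cell lysate replicates 1 to 3 had 0, 0 and 3. It was thus seen in every total exRNA library, and its 6 counts in S100 were all in 1 library.

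Over pooled counts, miR-32-5p had 21 in 183648 in total exRNA against 3 in 260500 in cell lysate, a ratio of 9.93 (exact 95% counting interval 2.96 to 52.0, which covers counting error only). S100 against total exRNA had 6 in 642660 against 21 in 183648, a ratio of 0.0816 (0.0270 to 0.209). These counts were below the filter for low values. Without that filter, total exRNA against cell lysate gave an edgeR adjusted p of 0.212, and S100 against total exRNA 0.0545.

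miR-363-3p was absent from every library. A count of 0 in 1235187 allows a share of up to 0.000243%. The other arm of its hairpin, miR-363-5p, was also at 0, as was miR-92a-2-5p, the 5p arm of its neighbour MIR92A2. miR-92a-1-5p, the 5p arm of the chromosome 13 hairpin, was counted 233 times and in all 18 libraries. Of the X-linked cluster partners, miR-18b-5p had 7 counts and miR-20b-5p had 3. miR-19b-3p had 19464, but it belongs to the chromosome 13 cluster as well, so its counts do not separate the loci. miR-106a-5p had 2758, but it is nearly identical to miR-17-5p of the chromosome 13 cluster, and the 2 may have exchanged reads.

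**Figure D2:**
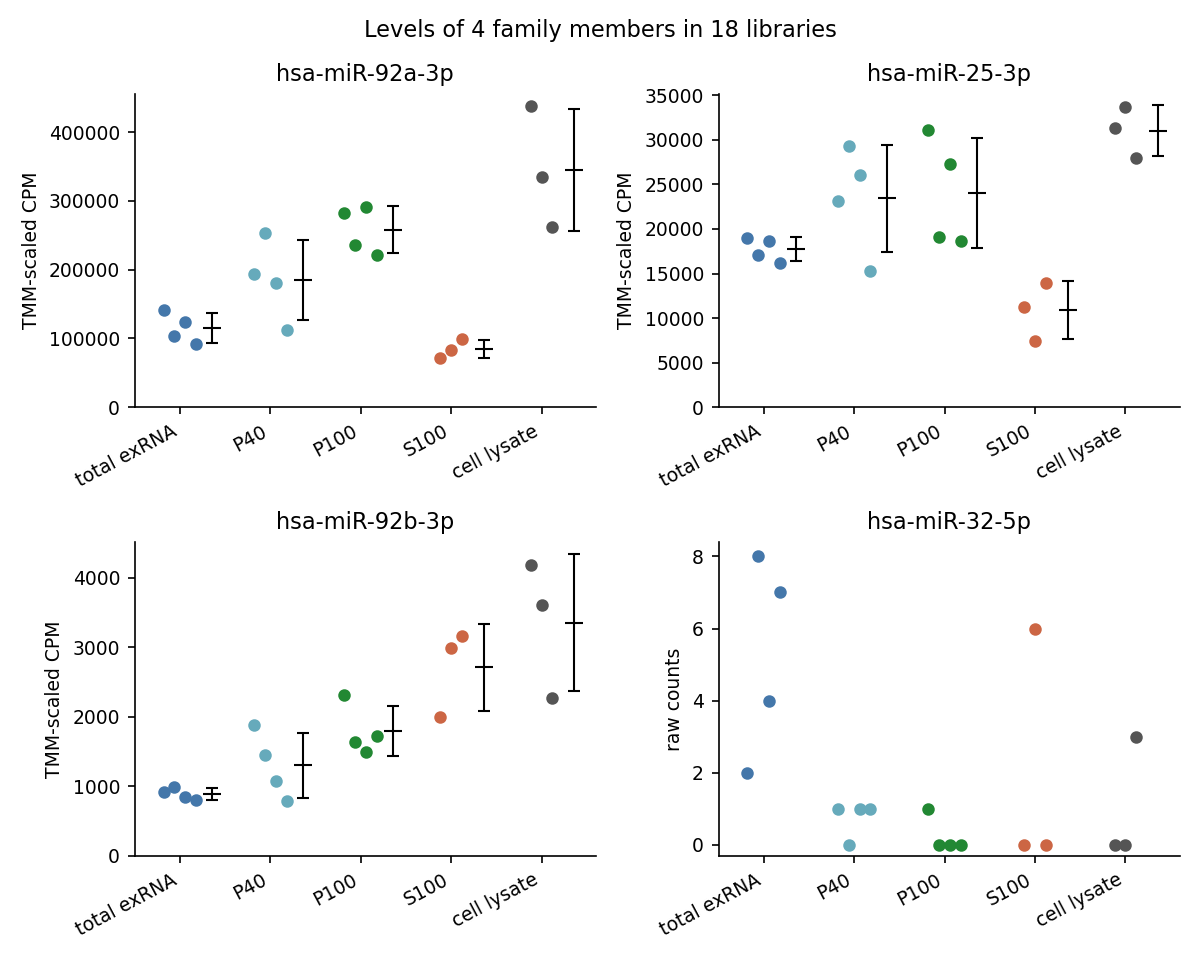
Levels of 4 members by group (x axis), as TMM-scaled CPM for miR-92a-3p, miR-25-3p and miR-92b-3p and as raw counts for miR-32-5p (y axes). Points are libraries in replicate order, and bars, drawn for the CPM panels, are mean ± SD. miR-92a-3p and miR-25-3p are lowest in S100, miR-92b-3p is lowest in total exRNA, and miR-32-5p reaches 8 counts in total exRNA.

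The first 4 comparisons ask how the share of each member in the medium or its fractions differed from that in the cells. They use the same 3 lysate libraries and are not independent. In total exRNA against cell lysate, 3 of 3 tested members were lower, where 16.3% of all 227 tested miRNAs were called lower. The log2 fold change was -1.58 ± 0.27 (SE) for miR-92a-3p, -1.91 ± 0.34 for miR-92b-3p and -0.81 ± 0.28 for miR-25-3p (edgeR quasi-likelihood test with Benjamini-Hochberg adjustment, adjusted p = 9.28e-05, 0.000121 and 0.0326). No total exRNA library reached the lowest lysate library for any of the 3, a separation that was not counted over all tested miRNAs. Fits with 1 library left out redid the low-count filter and the scaling. Without an S100 or cell lysate library that filter asks for fewer libraries, so library and filter cannot be told apart. The call of miR-25-3p held in 2 of 14 alternatives. It was lost without cell lysate replicate 1, 2 or 3 (-0.72, -0.68 and -0.77) and without total exRNA replicate 3 or 4 (-0.83 and -0.67), and with the replicate number as a block (-0.75, adjusted p = 0.0699).

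In P40 against cell lysate, miR-92a-3p (-0.90 ± 0.27, edgeR adjusted p = 0.0146) and miR-92b-3p (-1.36 ± 0.34, adjusted p = 0.00467) were lower, 2 of 3 tested members where 13.2% of all tested miRNAs were called lower. miR-25-3p, at -0.40 ± 0.28, did not pass (adjusted p = 0.317). The call of miR-92a-3p was lost without cell lysate replicate 1 (-0.63) or P40 replicate 4 (-0.68), and with scaling by library size only (-0.54). Without the low-count filter and in a fit of only the 2 groups, the calls of miR-92a-3p (-0.78 and -0.79) and miR-92b-3p (-1.26 under both) were lost.

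In P100 against cell lysate, 1 of 3 tested members was called lower, miR-92b-3p (-0.90 ± 0.34, edgeR adjusted p = 0.0373), where 20.7% of all tested miRNAs were, and its call held in 1 of 14 alternatives. It was lost with the block (-0.85, adjusted p = 0.0555), without any 1 of the lysate replicates 1, 2 and 3 (-0.58, -0.91 and -0.96) and without P100 replicate 2, 3 or 4 (-0.87, -0.84 and -0.89). miR-92a-3p (-0.42 ± 0.27, 95% interval -0.94 to 0.11) and miR-25-3p (-0.37 ± 0.28, -0.92 to 0.19) did not pass, and these intervals leave room for a decrease close to 1 on the log2 scale.

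In S100 against cell lysate, miR-92a-3p had its largest difference, -2.03 ± 0.30 (edgeR adjusted p = 4.97e-06), with 72212 to 98848 CPM in S100 and 261642 to 437709 in lysate. miR-25-3p was also lower (-1.51 ± 0.31, adjusted p = 0.000194), which made 2 of 3 where 30.0% of all tested miRNAs were called lower. miR-92b-3p did not pass (-0.30 ± 0.35, 95% interval -0.99 to 0.39, adjusted p = 0.479), and its sign turned under 7 of 13 alternatives. Leaving out any 1 library of the 2 groups, which also changed the filter, made both values smaller in size. The value of miR-92a-3p then ranged from -1.83 to -1.44, the latter without cell lysate replicate 1. That of miR-25-3p ranged from -1.30 to -0.96, the latter without S100 replicate 3. Depth differed between these groups, and without the filter for low counts the call of miR-25-3p was lost (-0.81).

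The comparisons among extracellular groups ask how the share of each member differed between these groups. Such shares do not give how a member was distributed over the fractions. In S100 against P40, miR-92a-3p (-1.13 ± 0.28, edgeR adjusted p = 0.00162) and miR-25-3p (-1.11 ± 0.29, adjusted p = 0.00303) were lower in S100. miR-92b-3p was higher (1.06 ± 0.34, edgeR adjusted p = 0.0112). That is 2 of 3 tested members lower and 1 higher, where 27.8% of all tested miRNAs were called lower and 25.1% higher. Calls in both directions were thus common here, and the difference between members was not tested. In CPM, none of the 3 members overlapped between S100 and P40, which was not counted over all tested miRNAs. As a share of counts, miR-92b-3p overlapped (0.196% in S100 replicate 2, 0.208% in P40 replicate 1). The call of miR-92a-3p was lost without S100 replicate 2 (-0.70), and that of miR-25-3p without P40 replicate 3 (-0.65), S100 replicate 2 (-0.82) or S100 replicate 3 (-0.62). Without the low-count filter both calls were lost (-0.50 and -0.49).

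S100 against P100 gave the same directions. miR-92a-3p (-1.61 ± 0.28, edgeR adjusted p = 6.04e-05) and miR-25-3p (-1.14 ± 0.29, adjusted p = 0.00189) were lower, 2 of 3 where 31.3% were called lower. miR-92b-3p was at 0.60 ± 0.34 and did not pass (adjusted p = 0.130). It did in 5 of 14 alternatives, among them without S100 replicate 2 (1.04) and without the low-count filter (1.27). The call of miR-25-3p was lost without S100 replicate 3 (-0.73) and without the low-count filter (-0.50).

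In S100 against total exRNA, groups that were both precipitated, miR-92b-3p was higher by 1.60 ± 0.33 (edgeR adjusted p = 0.000260), 1 of 3 where 29.5% of all tested miRNAs were called higher, and this call held under all 14 alternatives. miR-25-3p was lower (-0.71 ± 0.29, adjusted p = 0.0363), 1 of 3 where 33.9% were called lower, and its call held in 3 of the 14. It was lost with the block (-0.64, adjusted p = 0.0839) and when any 1 library of the 2 groups was left out (from -0.68 to -0.22). miR-92a-3p was at -0.45 ± 0.27 and did not pass (adjusted p = 0.159), and its value was 0.016 without the low-count filter.

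P100 against total exRNA showed 2 of 3 members higher in the pellet, miR-92a-3p (1.16 ± 0.25, edgeR adjusted p = 0.00137) and miR-92b-3p (1.00 ± 0.33, adjusted p = 0.0242), where 13.2% of all tested miRNAs were called higher. miR-92a-3p kept its call under all 15 alternatives. miR-92b-3p lost it without P100 replicate 1 (0.85) or total exRNA replicate 3 (0.97) or 4 (1.00), with library size only (0.83) and without the low-count filter (0.80). miR-25-3p did not pass (0.44 ± 0.26, adjusted p = 0.216).

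In P40 against total exRNA, 0 of 3 members were called, where 5.73% of all tested miRNAs were called higher and 6.17% lower. miR-92a-3p was at 0.68 ± 0.25 (unadjusted p = 0.0119, edgeR adjusted p = 0.0795), and it passed without P40 replicate 4 (0.84). Between the pellets, P100 against P40, 0 of 3 members were called, where 2.20% were called higher and 2.64% lower. The values were 0.48 ± 0.25 for miR-92a-3p, 0.46 ± 0.33 for miR-92b-3p and 0.04 ± 0.26 for miR-25-3p, each without an unadjusted p under 0.05 in edgeR (0.0684, 0.183 and 0.894). DESeq2 called none of the members in these 2 comparisons.

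**Figure D3:**
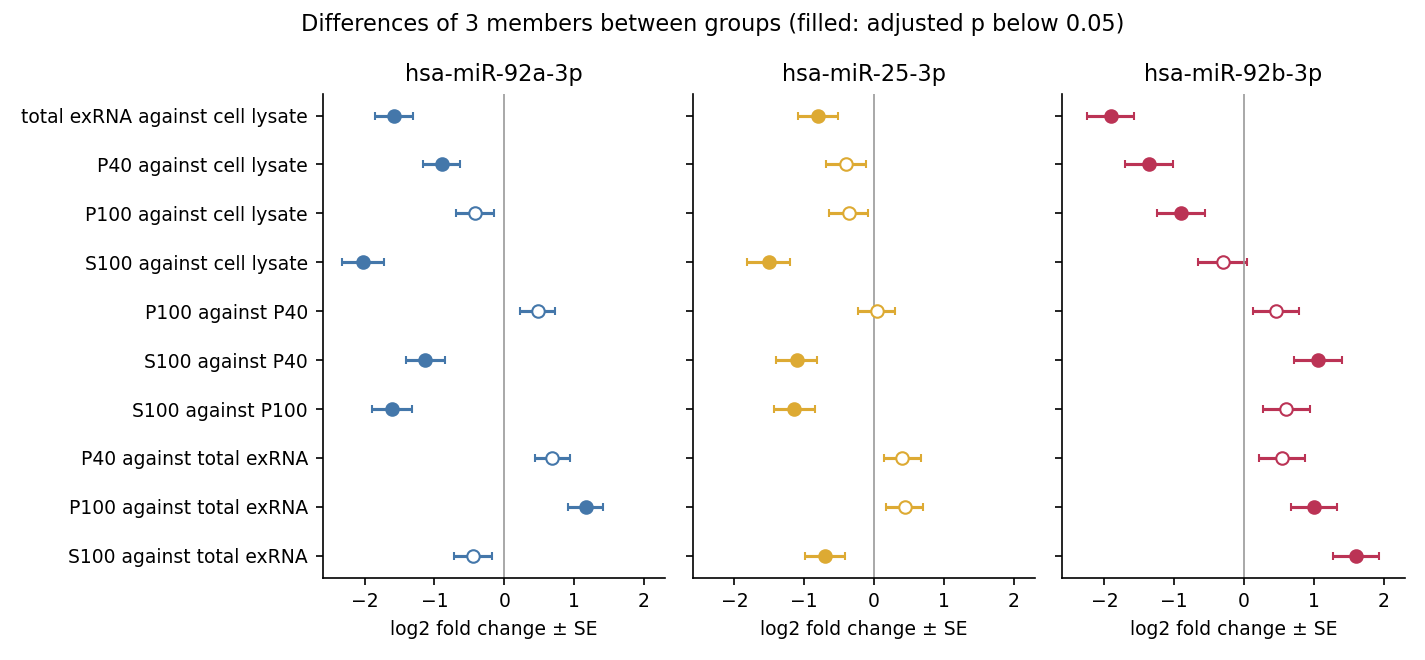
Log2 fold changes (x axis) with SE bars of 3 members in the 10 comparisons (rows, first-named group over the second). Filled points passed the edgeR test. miR-92a-3p and miR-25-3p lie left of 0 wherever S100 is compared (miR-92a-3p against total exRNA is at 0.016 without the low-count filter), whereas miR-92b-3p lies right of 0 in S100 against P40, P100 and total exRNA.

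Ratios between members within a library do not depend on how libraries are scaled. They are given without a test, and the difference between members was not tested otherwise. The ratio of miR-92a-3p to miR-92b-3p counts was 105 to 154 in total exRNA, 103 to 175 in P40, 122 to 195 in P100, 27.7 to 36.2 in S100 and 92.7 to 115 in cell lysate. The S100 libraries lay below all 15 others. miR-92b-3p accordingly made up 2.34% to 3.21% of the family in S100, against 0.778% to 0.970% in cell lysate.

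The ratio of miR-92a-3p to miR-25-3p counts was 5.66 to 7.40 in total exRNA, 6.91 to 8.65 in P40, 9.10 to 12.3 in P100, 6.42 to 11.0 in S100 and 9.35 to 14.0 in cell lysate. Total exRNA and P40 libraries lay below all lysate libraries, and P100 libraries lay above all P40 and total exRNA libraries. P100 and lysate overlapped, and S100 spread over the range of the others.

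**Figure D4:**
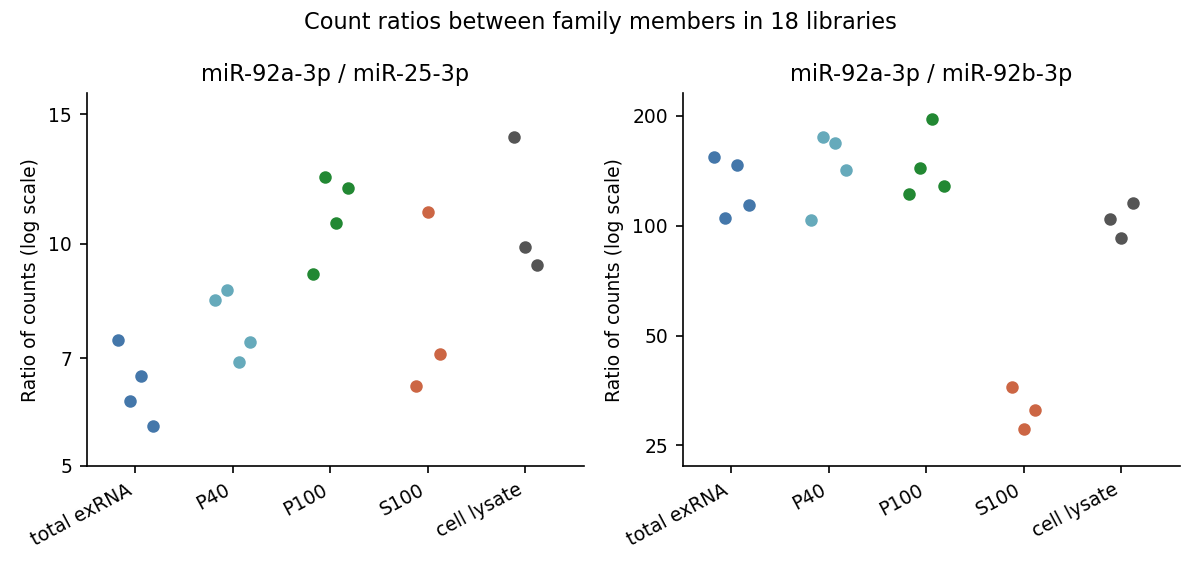
Count ratios of miR-92a-3p to miR-25-3p and to miR-92b-3p (y axes, log scale) in 18 libraries by group (x axis). Points are libraries. The ratio to miR-92b-3p is 27.7 to 36.2 in S100 and at least 92.7 elsewhere.

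The 2 arms of a hairpin come from the same precursor, and usually 1 of them is kept by Argonaute. In MIR25 the 3p arm, the family member, prevailed in every library. The ratio of miR-25-3p to miR-25-5p was 97.2 to 254 in total exRNA, 48.2 to 184 in P40, 104 to 184 in P100, 56.1 to 133 in S100 and 31.2 to 49.9 in cell lysate. The lowest P40 library (replicate 4, with 4 counts of miR-25-5p) fell inside the lysate range, and all other extracellular libraries lay above it.

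miR-25-5p itself was lower against cell lysate in all 4 comparisons, by log2 fold changes of -2.71 ± 0.48 in total exRNA, -1.70 ± 0.49 in P40, -2.31 ± 0.52 in P100 and -2.67 ± 0.49 in S100 (edgeR adjusted p = 0.000121, 0.0128, 0.00141 and 7.41e-05). The P40 call was lost without the low-count filter (-1.66) and in a fit of only the 2 groups (-1.63), and the other 3 held under every alternative run. No extracellular library overlapped with lysate in CPM of miR-25-5p, where it had 18, 146 and 55 counts in replicates 1 to 3. Its counts were 4 to 8 per library in total exRNA, 2 to 10 in P40, 1 to 6 in P100 and 20 to 33 in S100, so depth limits the single values.

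For MIR92A1 the pooled ratio of miR-92a-3p to miR-92a-1-5p was 936 in total exRNA (exact 95% counting interval 629 to 1462), 657 in P40 (434 to 1048), 636 in P100 (445 to 943), 538 in S100 (442 to 663) and 1253 in cell lysate (971 to 1646). P100 and S100 libraries lay below all lysate libraries, and total exRNA and P40 libraries fell on both sides. In P100 against total exRNA miR-92a-1-5p was higher by 1.82 ± 0.62 (edgeR adjusted p = 0.0318), as its 3p arm was. miR-92a-1-5p had only 6, 9, 12 and 3 counts in P100 replicates 1 to 4 and 4, 16, 3 and 1 in total exRNA replicates 1 to 4. The call was lost without P100 replicate 2 or 3 (1.84 and 1.62) or total exRNA replicate 1, 3 or 4 (1.80, 1.57 and 1.60). It was also lost without the low-count filter (1.61). Without total exRNA replicate 2 the value was 2.69. Pooled miR-92b-3p to miR-92b-5p ratios were 19.7 in total exRNA, 24.5 in P40, 16.0 in P100, 24.4 in S100 (19.2 to 31.4) and 68.0 in cell lysate (37.8 to 137), with 4 to 11 counts of the 5p arm in each group but S100, which had 70.

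**Figure D5:**
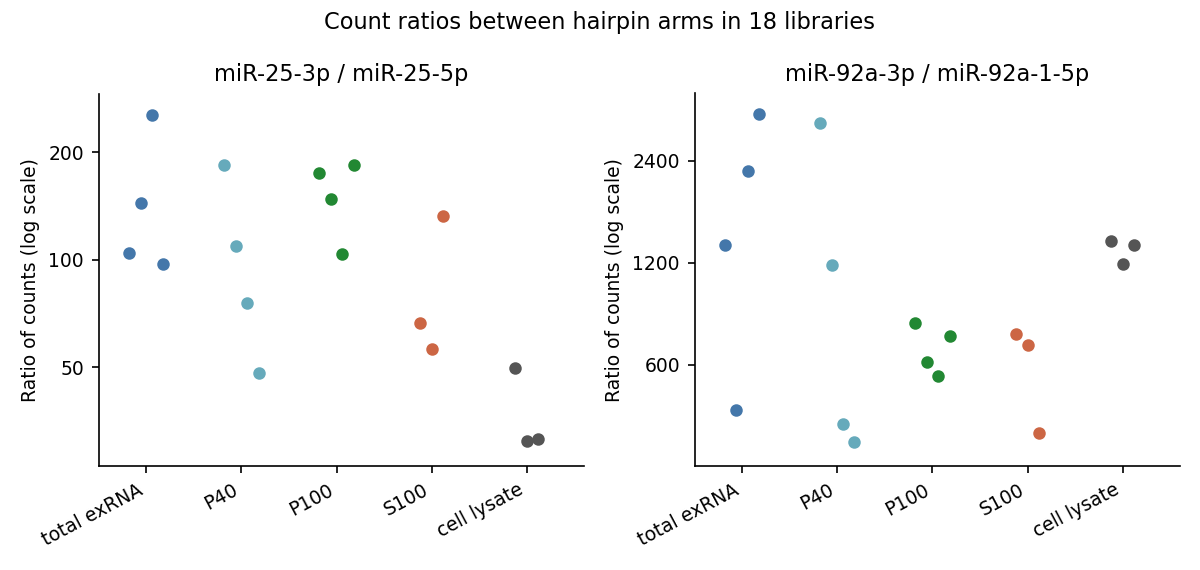
Count ratios of the 3p to the 5p arm for MIR25 and MIR92A1 (y axes, log scale) in 18 libraries by group (x axis). Points are libraries. The MIR25 ratio is 31.2 to 49.9 in cell lysate and above that in all extracellular libraries but P40 replicate 4.

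Of 15 miRNAs that share primary transcripts with the family, 12 were tested, and the share of them called against cell lysate was near or below that over all tested miRNAs. In total exRNA 2 of 12 were higher and 1 lower, where 18.9% of all tested miRNAs were called higher and 16.3% lower. P40 had 1 higher and 1 lower (13.7% and 13.2% over all), P100 had 0 and 2 (16.7% and 20.7%) and S100 had 3 and 2 (32.2% and 30.0%). The median log2 fold change in total exRNA was 0.29 over the partners, -1.58 over the 3 tested members and 0.01 over all tested miRNAs. In P40 these medians were -0.40, -0.90 and 0.06, and in S100 -0.14, -1.51 and -0.04. In P100 partners and members had nearly the same median, -0.41 and -0.42, beside -0.10 over all.

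Of the miR-17-92 cluster, miR-19b-3p and miR-17-5p, which targets the cell-cycle inhibitor p21, were called in none of the 4 comparisons. miR-19b-3p is a member of the miR-19 seed family and also belongs to the X-linked cluster. miR-19b-3p had 21810 ± 9809 CPM in total exRNA, 13168 ± 4859 in P40, 14210 ± 5227 in P100, 16096 ± 4229 in S100 and 11920 ± 4395 in cell lysate. In the miR-106b-25 cluster, miR-93-5p, which has the seed of miR-17-5p, was lower in P40 (-1.10 ± 0.34), P100 (-1.02 ± 0.34) and S100 (-0.98 ± 0.36) against lysate (edgeR adjusted p = 0.0169, 0.0200 and 0.0226). Those calls were lost without cell lysate replicate 3 (-0.84, -0.71 and -0.45), the P100 call also without P100 replicate 2 or 3 (-0.88 and -0.95), and the S100 call without any 1 library of its groups (-0.79 to -0.40). Where an S100 or lysate library was left out, the filter changed as well.

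miR-106b-3p was lower in S100 against lysate (-1.14 ± 0.42, edgeR adjusted p = 0.0229). That call was lost with the block (-0.89, edgeR adjusted p = 0.0854) and without any 1 library (-0.96 to -0.56), where the filter changed as well. miR-106a-5p was higher against lysate in total exRNA (1.69 ± 0.59), P40 (2.40 ± 0.61) and S100 (4.09 ± 0.64), with edgeR adjusted p = 0.0310, 0.00472 and 1.11e-05. In P100 against lysate it went the other way without passing (-1.77 ± 0.81, adjusted p = 0.0877), and it was lower in P100 against P40 (-4.17 ± 0.74, edgeR adjusted p = 0.000987). Its total exRNA call was lost without cell lysate replicate 1 (1.47) or total exRNA replicate 1 or 3 (1.45 and 1.58), and with the block (1.68, adjusted p = 0.0535). Its reads are uncertain for the reason given above.

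Likeness of pattern was measured as the root-mean-square difference of centred log2 CPM over the 18 libraries. The miRNAs compared come from the same libraries, with the depth and scaling of each. miR-92a-3p and miR-25-3p differed by 0.37, less than miR-92a-3p differed from any of 224 miRNAs outside the family. The closest of those to miR-92a-3p were miR-375-3p (0.51), miR-155-5p (0.54) and miR-191-5p (0.55), and the median over all was 1.36. Closest to miR-25-3p were miR-181b-5p (0.44), miR-155-5p (0.45) and miR-106b-3p (0.47) of its own cluster. miR-92b-3p lay farther from its family, at 0.81 from miR-92a-3p and 0.86 from miR-25-3p, than from miR-197-3p (0.44), miR-484 (0.56) and let-7b-5p (0.60).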

How the data were processed

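Per the labels, RealSeq-AC was the library kit and reads were single-end. The authors deposited raw counts per mature human miRNA, with only miRNAs of at least 1 count listed, so a missing name was taken as 0. The submitters' processing notes name the tools Bowtie2, cutadapt 1.16 and FastQC, and the build GRCh38. Step order, alignment settings, miRNA release and the treatment of reads matching several miRNAs are not given in the sources used here. The members and lists were chosen with earlier results of these data known.

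S100 replicate 1 fell under a minimum of 100 detected miRNAs and was set aside, which left 18 of 19 libraries. miRNAs were kept by filterByExpr (minimum count 10, minimum total 15), leaving 227 with 98.5% to 99.1% of each library's counts and 3 of the 5 members. With edgeR 4.0.16 in R 4.3.3, libraries were TMM-scaled, the 5 groups entered 1 quasi-likelihood fit with robust dispersions, and p was adjusted by Benjamini-Hochberg over the 227 miRNAs of each of 10 comparisons. Calls are at adjusted p below 0.05. SE is the log2 fold change over the root of F, and 95% intervals of log2 fold changes are 1.96 SE. Differences are in scaled share, not in amount. The labels mention no molecular identifiers, and the Wilson and exact intervals cover counting error only. DESeq2 1.42.0 served as an alternative. Fits with 1 library left out redid the filter and the scaling. The procedure was tested on simulated counts. Named were all 5 members, their other arms, the 2 most counted partners of each cluster and the 3 miRNAs closest in pattern to each tested member.

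Each label gives a batch number equal to the replicate number, which pairs the samples by label. Deviations of same-numbered libraries from their group means correlated at a mean of -0.0301 (32 pairs) and of other pairs at 0.00987 (97). No 2 libraries of a group held the same values.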

Additional observations from a re-analysis of the deposited data

Results flagged for a closer look

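S100 replicate 1, a library outside all comparisons, held 6 counts of miR-92a-3p in 48, more than the 3 that a count of 0 allows. That is 12.5% (95% Wilson interval 5.86% to 24.7%), where the other S100 libraries had 7.07% to 8.80%. No other member was counted there. The check for outlying libraries in groups of 4 flagged none for member CPM, the family share or the ratios between members. P40 replicate 4 was still the lowest of its group in family share (15.5%, the others 23.0% to 27.8%). It was also lowest in miR-25-3p (15260 CPM, the others 23131 to 29292).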

How the results depend on the processing

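Of 617 values recomputed under alternatives, 501 kept their direction and their side of the threshold, 95 lost a call, 8 gained one and 13 turned their sign. For miR-92a-3p, P40 against cell lysate lost its call with library size only (-0.54), without the low-count filter (-0.78) and in a fit of only the 2 groups (-0.79), and ranged from -1.10 to -0.63 with 1 library left out. S100 against P40 lost it without the filter (-0.50) and ranged from -1.10 to -0.70. P40 against total exRNA gained a call with library size only (0.71) and ranged from 0.48 to 0.84. S100 against total exRNA gained one with library size only (-0.57) and was 0.016 without the filter. S100 against cell lysate for miR-92b-3p turned to 0.12 with DESeq2 size factors, 0.44 without the filter and 0.13 in DESeq2, and ranged from -0.15 to 0.28 with 1 library left out. P100 against P40 for miR-25-3p turned to -0.18 with library size only and -0.020 in the fit of 2 groups, and ranged from -0.12 to 0.21. The causes were not tested.

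The replicate block ended the member calls of miR-25-3p in total exRNA against cell lysate (-0.75) and in S100 against total exRNA (-0.64), and of miR-92b-3p in P100 against cell lysate (-0.85). It changed no other call of a member. Library size only moved the median of all tested miRNAs by 0.30 in total exRNA and 0.35 in P40 against cell lysate, and dropping the filter moved it by 0.69 in S100 against cell lysate. Depth limits miR-32-5p, miR-363-3p and the 5p arms.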
